A study of Mus musculus with 24 samples.

Results

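Polycomb repressive complex 2 (PRC2) was followed here through 7 genes: Suz12, Ezh1, Ezh2, Eed, Rbbp4, Rbbp7 and Jarid2. Every probe of these genes on a 44K mouse oligonucleotide array was taken by gene name or transcript accession, which gave 13 of 41174 probes (7 of 27670 genes or other named features), and each probe was kept apart. Of the 13 probes, 10 passed the filter on dim signal (19358 of 41174 passed in all). The filter asked for Cy5 signal well above background on all 3 arrays of at least 1 group, so a probe that is bright in a single group also passed.

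The cells were mouse embryonic fibroblasts, connective tissue cells grown from embryos at day 13.5 of pregnancy, from C57BL6 parents heterozygous for a CHIP knockout. CHIP, a ubiquitin ligase, is encoded by Stub1 and works with heat shock chaperones. Cultures were CHIP(+/+), here called wildtype, or CHIP(-/-), here called CHIP null, and they were kept at 37 °C as controls or heat shocked at 43 °C. With labels of 30 and 240 min this made 8 groups, each of 3 arrays that the labels call biological replicates: wildtype control, wildtype heated, CHIP null control and CHIP null heated, at each time label. Each array held Cy5-labelled sample RNA beside a Cy3-labelled common reference, and a level below is the log2 ratio of Cy5 to Cy3, so that levels of different probes cannot be set against each other.

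Across the whole series, 32.9% to 48.6% of probes were well above background in Cy5 per array, and replicates of a group correlated at 0.978 to 0.994. The share was 32.9% to 41.6% on arrays labelled 30 min and 44% to 48.6% on those labelled 240 min. Stub1 ranged from -0.24 to -0.01 over 12 wildtype arrays, while in CHIP null cells (12 arrays) it ranged from -2.43 to -1.72. All 12 fibroblast markers examined were above background on some array and 8 of 12 on all 24, as were 2 of 13 macrophage markers. Other macrophage markers were above background on 22 arrays (Cd68, Ctss, Tyrobp and Cd52), 21 (Csf1r and Fcer1g), 20 (Cd14), 14 (Adgre1) and 4 (Laptm5). The macrophage surface genes Itgam and Ptprc were above background on none. On all 24 arrays were also 3 of 6 epithelial, 1 of 6 endothelial and 6 of 7 skeletal or cardiac muscle markers. The processed value table that the authors deposited matched, in 24 of 24 columns, scanner files of the opposite time label, so the time labels are uncertain. The times below are those of the scanner files' labels. Arrays labelled 30 min lay on 3 slides and those labelled 240 min on 3 others, so time and slide set cannot be told apart.

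PRC2 adds methyl groups to lysine 27 of histone H3, a mark of genes that are kept silent. EZH2, or its relative EZH1, is the methyltransferase, and it is active only when held by SUZ12 and EED, of which EED also reads the mark. RBBP4 and RBBP7 are near-identical histone-binding proteins that also belong to histone deacetylase, chromatin assembly and remodelling complexes, and JARID2 helps to bring PRC2 to its targets. In cultured fibroblasts PRC2 is best known for holding the INK4 cell cycle inhibitors silent, and EZH2 transcription rises in dividing cells.

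In build GRCm38.p6 of the RefSeq annotation, Suz12 lies on the plus strand of chromosome 11 (79993106 to 80034123) and Rbbp7 on the plus strand of chromosome X (162760372 to 162779090). Ezh2 lies on the minus strand of chromosome 6 (47530274 to 47595270), Eed on the minus strand of chromosome 7 (89954654 to 89980976) and Rbbp4 on the minus strand of chromosome 4 (129307100 to 129335370). Ezh1 lies on the minus strand of chromosome 11 (101191115 to 101226463) and Jarid2 on the plus strand of chromosome 13 (44730774 to 44921643). The 250 bases before the annotated start of Suz12 and of Rbbp7 are shown from RefSeq, since these genes had the largest heat effects of the 7 with the main processing. Capitals mark 4 kinds of short motif, searched on both strands: E2F words (TTTCCCGC, TTTGGCGC, TTTCGCGC or TTTGCCGC), the CCAAT box (CCAAT), the GC box (GGGCGG) and the heat shock element, here 3 GAA units in alternating orientation, each 2 bases apart.
Suz12 (chr11:79992856-79993105, plus strand): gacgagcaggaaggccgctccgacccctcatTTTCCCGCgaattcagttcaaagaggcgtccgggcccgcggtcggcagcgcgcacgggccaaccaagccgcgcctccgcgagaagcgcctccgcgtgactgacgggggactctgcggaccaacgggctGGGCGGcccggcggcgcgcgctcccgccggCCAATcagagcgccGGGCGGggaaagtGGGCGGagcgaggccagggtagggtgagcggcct
Rbbp7 (chrX:162760122-162760371, plus strand): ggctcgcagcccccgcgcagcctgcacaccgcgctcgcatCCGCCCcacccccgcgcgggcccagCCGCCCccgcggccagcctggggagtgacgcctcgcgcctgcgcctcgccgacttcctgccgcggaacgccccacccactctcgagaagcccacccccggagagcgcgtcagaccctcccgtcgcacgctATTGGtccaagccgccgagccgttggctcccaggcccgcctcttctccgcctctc

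The Suz12 window held 1 E2F word (first base at -219 from the start), 1 CCAAT box and 3 GC boxes. The Rbbp7 window held 1 CCAAT box and 2 GC boxes, all on the opposite strand. Such E2F words occur in 1.86% of the 32851 promoter windows of this length, CCAAT boxes in 33.85%, GC boxes in 32.74% and the heat shock element in 0.466%. Over the 7 genes, 1 had an E2F word, 5 a CCAAT box and 4 a GC box, and none of the 8 windows (Jarid2 has 2) held the heat shock element in that form. A motif match describes letters and is no evidence of binding. The Suz12 and Rbbp7 windows were 73.6% and 76.4% G and C, against a median of 52.4% over all windows.

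Heat was first compared with the control at 37 °C in each genotype and time. Of the 10 tested PRC2 probes, 2 passed in wildtype cells at 30 min, both lower (Rbbp7 and Rbbp4), and 1 in wildtype cells at 240 min, also lower (Suz12). In CHIP null cells 5 passed at 30 min, 4 lower (Rbbp7, Suz12, Eed and Ezh2) and 1 higher (Jarid2), and 2 at 240 min, both lower and both of Suz12. A probe passed when its adjusted p was under 0.05 in limma's moderated test with Benjamini-Hochberg adjustment over the 19358 probes. Over all tested probes the share that passed was 11.2% in wildtype at 30 min, 28.5% in wildtype at 240 min, 30.6% in CHIP null at 30 min and 35.1% in CHIP null at 240 min. In the same order, 5.99%, 12.2%, 11.9% and 14.2% passed as lower and 5.22%, 16.3%, 18.8% and 20.9% as higher. Where single members are said below to stand apart, meaning that the 3 arrays of one group lay on one side of the 3 of the other, 14.5%, 17.6%, 17.5% and 15.3% of all tested probes did so as lower and 14.2%, 31%, 23.8% and 27.7% as higher.

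Suz12, the subunit that holds the complex together, had the largest fall at 240 min. Its brighter probe (A_51_P214796, above background on all 24 arrays) read 0.31, 0.24 and 0.31 on the wildtype controls at 240 min and -0.28, -0.40 and -0.54 on the heated arrays. The CHIP null controls read 0.36, 0.12 and 0.36, against -0.07, -0.57 and -0.61 after heat. All heated arrays lay below all controls in both genotypes, and 1 heated CHIP null array (replicate 1) fell less than the others. The change was -0.69 (SE 0.090, 1.62-fold lower, limma adjusted p = 3e-06) in wildtype and -0.70 (SE 0.090, limma adjusted p = 1.9e-06) in CHIP null cells. The SE shares 1 spread over all 8 groups, whose SDs ran from 0.02 (CHIP null controls at 30 min) to 0.30 (heated CHIP null at 240 min). Of all tested probes, only 0.47% and 0.604% changed by a more negative amount. Leaving out single arrays gave -0.76 to -0.63 in wildtype and -0.87 to -0.60 in CHIP null cells. On the 1 slide that held both wildtype treatments the difference was -0.57, from 1 heated array against 3 controls, and on the 1 slide for CHIP null it was -0.78, from 3 heated arrays against 1 control. Centring each array on its median in place of loess gave -1.14 in CHIP null cells.

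At 30 min the same Suz12 probe moved less. The wildtype controls read -0.19, -0.25 and -0.22 and the heated arrays -0.27, -0.34 and -0.33, a change of -0.09 (SE 0.090, limma adjusted p = 0.59). The CHIP null controls read -0.03, 0.01 and -0.02 and the heated arrays -0.30, -0.26 and -0.24, a change of -0.25 (SE 0.090, limma adjusted p = 0.032). Heated arrays lay below controls without overlap in both genotypes, so the direction was that of 240 min. The CHIP null call at 30 min was lost when any 1 of the 6 arrays was left out (adjusted p 0.054 to 0.08), while the scanner software's own ratio gave a larger change of -0.68 (adjusted p = 0.0021).

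The dimmer Suz12 probe (A_52_P302203) gave smaller values in the same direction. At 240 min it read 0.41, 0.30 and 0.21 on wildtype controls and 0.31, 0.15 and -0.06 after heat, with overlap, and the change of -0.18 (SE 0.069) did not pass (limma adjusted p = 0.056). Its CHIP null values were 0.48, 0.42 and 0.40 against 0.30, 0.21 and 0.26, without overlap, and the change of -0.18 (SE 0.069) passed (limma adjusted p = 0.048). That call was lost without 5 of the 6 arrays in turn, all but heated replicate 1 (adjusted p 0.067 to 0.15). The background step adds an offset of 50 to each signal, which draws the ratios of dim probes towards 0. With the scanner software's ratio, which has no such offset, the dimmer probe changed by -0.70 in wildtype and -0.59 in CHIP null cells (adjusted p = 0.1 and 0.16). The same ratio gave -0.70 and -0.83 at 30 min (adjusted p = 0.091 and 0.031), so for this probe the fall was not smaller at 30 min on that scale. Within 1 slide the wildtype difference at 240 min was 0.00, from 1 heated array against 3 controls.

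**Figure D1:**
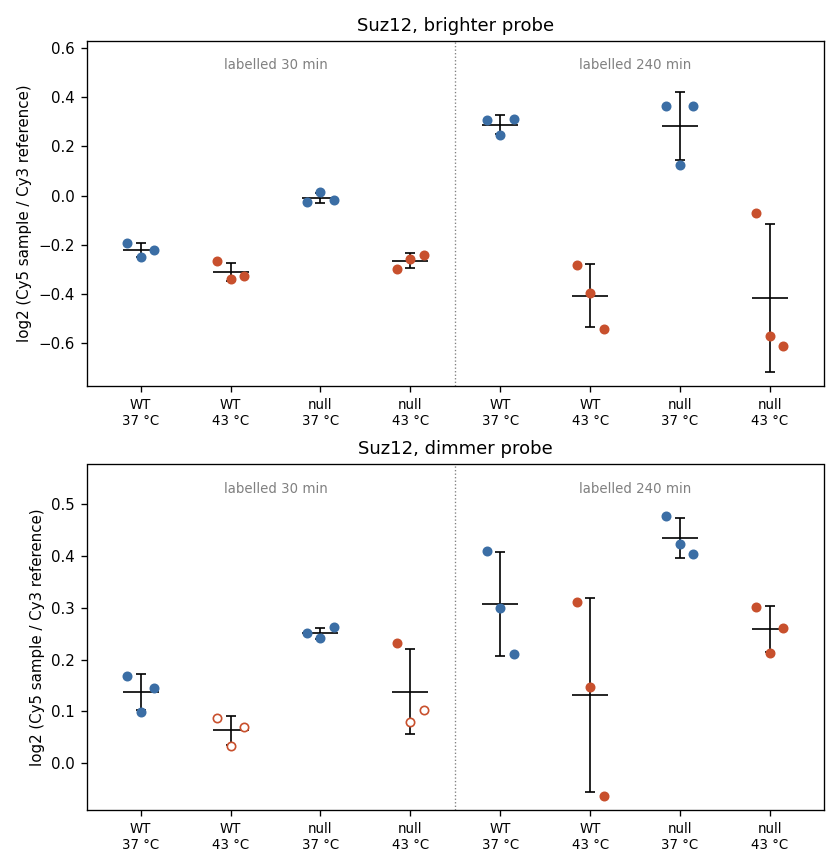
Log2 ratio of Suz12 to the common reference on each of 24 arrays, for the brighter probe (top) and the dimmer probe (bottom). Blue points are 37 °C controls, red points are cells heated at 43 °C, open points were not well above background, and bars are the group mean with 1 SD (n = 3). At 240 min all heated points of the brighter probe lie below all controls.

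The order of the 8 groups for the brighter Suz12 probe ran from the 240 min controls, at 0.29 ± 0.04 (SD) in wildtype and 0.28 ± 0.14 in CHIP null cells, to the heated 240 min groups at -0.41 ± 0.13 and -0.42 ± 0.30, with the 30 min groups between. In 5 of the 7 pairs of neighbours in that order the arrays overlapped. The 2 steps without overlap were from the 240 min CHIP null controls to the 30 min CHIP null controls, and from those to the 30 min wildtype controls.

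Whether the heat effect differed between times was tested in the same fit. For the brighter Suz12 probe in wildtype cells the effect at 240 min minus that at 30 min was -0.60 (SE 0.128, limma adjusted p = 0.015), 1 PRC2 probe of 10, where 0.971% of all probes passed. In CHIP null cells it was -0.45 (SE 0.128, limma adjusted p = 0.061) and did not pass, though without heated replicate 1 at 240 min it was -0.62 (adjusted p = 0.00046). The wildtype difference was lost without heated replicate 3 at 240 min (-0.54, adjusted p = 0.059) and with the scanner software's ratio (-0.74, adjusted p = 0.12), the slide block (-0.48, adjusted p = 0.5), offset 10 (-0.70, adjusted p = 0.085) and median centring (-0.71, adjusted p = 0.37). The value table's labels turn these times around: there the Suz12 changes of -0.95 in wildtype and -0.88 in CHIP null cells stand under 30 min.

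Rbbp7, one of the paired histone-binding subunits, had the largest fall at 30 min with the main processing. With the scanner software's ratio it fell by less (-0.44 in wildtype, -0.59 in CHIP null cells) than 2 dim probes. These were the dimmer Suz12 probe (-0.70 and -0.83) and Rbbp4 probe A_52_P424767 (-0.66 and -0.86). In CHIP null cells the brighter Suz12 probe also fell by more than Rbbp7 with that ratio (-0.68). The single Rbbp7 probe (A_51_P114385, above background on all 24 arrays) read -0.03, -0.15 and -0.16 on wildtype controls and -0.55, -0.51 and -0.61 on heated arrays. Among CHIP null arrays it read 0.08, -0.06 and 0.02 on controls and -0.70, -0.41 and -0.49 after heat. The groups stood apart in both genotypes, with changes of -0.44 (SE 0.070, 1.36-fold lower, limma adjusted p = 0.00017) in wildtype and -0.55 (SE 0.070, limma adjusted p = 4e-06) in CHIP null cells. Only 0.744% and 0.703% of all tested probes changed by a more negative amount. Leaving out single arrays gave -0.46 to -0.40 and -0.61 to -0.47. Within 1 slide the differences were -0.39 (3 heated arrays against 1 control) and -0.72 (1 heated array against 3 controls). Median centring gave -1.07 in CHIP null cells.

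At 240 min the Rbbp7 changes were small. The wildtype controls read 0.01, 0.06 and -0.02 and the heated arrays -0.06, -0.14 and -0.17, a change of -0.14 (SE 0.070, limma adjusted p = 0.13). The CHIP null change was -0.16 (SE 0.070, limma adjusted p = 0.082), and without heated replicate 1 it was -0.23 (adjusted p = 0.014). The effect at 240 min minus that at 30 min was 0.40 in CHIP null cells (SE 0.099, limma adjusted p = 0.036, where 1.92% of all probes passed) and 0.30 in wildtype cells (SE 0.099, limma adjusted p = 0.12). The CHIP null difference was lost when 6 of its 12 arrays were left out in turn: control replicates 1 and 3 and heated replicate 1 at 30 min, and control replicates 2 and 3 and heated replicate 2 at 240 min (0.31 to 0.41, adjusted p 0.051 to 0.094). It was also lost with the slide block (0.54, adjusted p = 0.091), offset 10 (0.46, adjusted p = 0.075), median centring (0.64, adjusted p = 0.39) and the scanner software's ratio (0.42, adjusted p = 0.071). The brighter Suz12 probe and Rbbp7 therefore had their largest measured falls at opposite time labels, under either reading of those labels. This did not hold for the dimmer Suz12 probe with the scanner software's ratio, where its fall was not smaller at 30 min.

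Beside these heat results, the macrophage markers that were tested fell with heat in wildtype cells at 30 min in 7 of 10 cases, and their mean level per array went from between -0.37 and -0.34 to between -1.04 and -0.92. In CHIP null cells at 30 min 3 of the 10 rose and 1 fell, and their mean level was between -1.37 and -1.22 over controls and heated arrays. At 240 min 3 rose in wildtype and 7 rose in CHIP null cells, with none lower. The size of these rises depends on the scaling: with median centring the 10 markers lay between -0.17 and 0.05 in CHIP null cells at 240 min. The median of all tested probes in that comparison was itself -0.17 with median centring, and 0.06 with loess. The part of these markers in the Rbbp7, Rbbp4 and Suz12 falls was not tested. In RNA from whole cultures, fewer cells of a type and less RNA per cell cannot be told apart.

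Rbbp4, the partner of Rbbp7, was read by 4 probes that did not move as one. The brightest (A_51_P307325) read 0.89, 0.76 and 0.69 on wildtype controls at 30 min and 0.51, 0.45 and 0.60 after heat, without overlap. Its change was -0.26 (SE 0.070, limma adjusted p = 0.014), and the call was lost without control replicate 1 (-0.21, adjusted p = 0.11), without heated replicate 2 (-0.23, adjusted p = 0.067) and within 1 slide (-0.17, adjusted p = 0.43). It was also lost with median centring and with the scanner software's ratio (-0.21). The same probe changed by -0.14 in CHIP null cells at 30 min, and by -0.16 and -0.06 in wildtype and CHIP null cells at 240 min, none of which passed (limma adjusted p = 0.13, 0.076 and 0.52). With median centring the CHIP null change at 30 min was -0.63 and passed (adjusted p = 0.0035). The other 3 Rbbp4 probes ranged from -0.11 to 0.11 over the 4 heat comparisons and none passed. Of these, A_52_P296810 passed with median centring in CHIP null cells (-0.41 at 30 min and -0.37 at 240 min, adjusted p = 0.0084 and 0.014). The dimmest, A_52_P424767, was lower at 30 min with the scanner software's ratio (-0.66 in wildtype and -0.86 in CHIP null cells, adjusted p = 0.036 and 0.0044). One of those 3 (A_52_P382731) was assigned to Rbbp4 by its symbol alone, since its accession had no match.

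**Figure D2:**
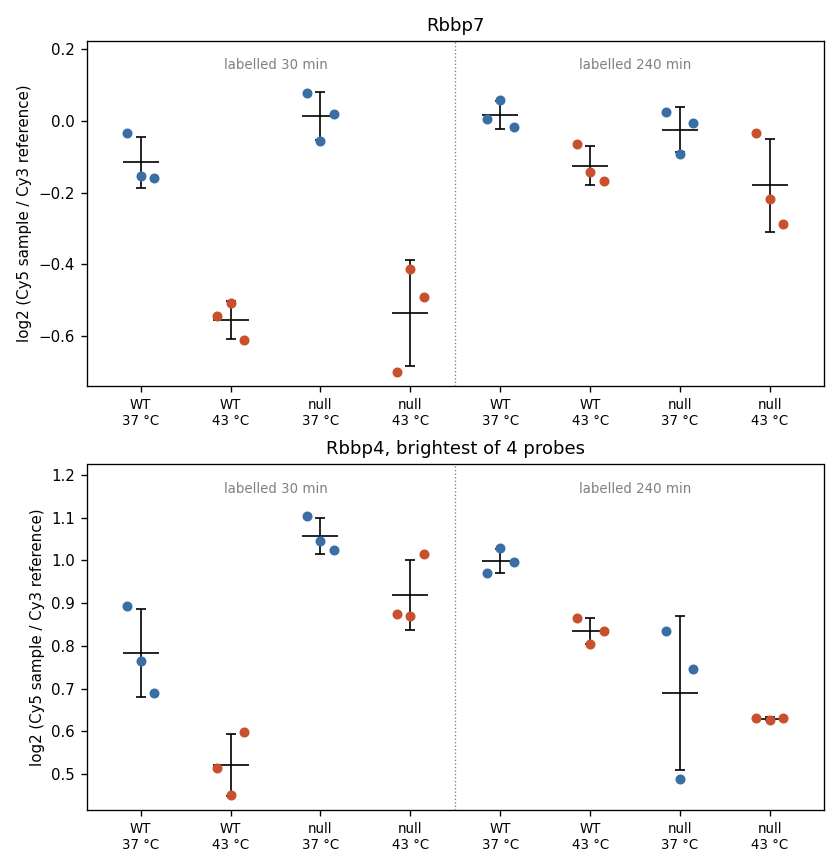
Log2 ratio to the common reference on each of 24 arrays for Rbbp7 (top) and the brightest Rbbp4 probe (bottom). Colours and bars are as for Suz12: blue controls at 37 °C, red cells heated at 43 °C, mean with 1 SD (n = 3). Rbbp7 was lower in all heated arrays at 30 min than in any control at that time.

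The catalytic subunit Ezh2 and the mark-reading subunit Eed passed with heat in CHIP null cells at 30 min. Ezh2 (A_51_P248067) read 0.55, 0.29 and 0.54 on the controls and 0.22, 0.28 and 0.27 after heat, a change of -0.21 (SE 0.067, limma adjusted p = 0.02). Eed (A_51_P238643) read 0.64, 0.54 and 0.78 on the controls and 0.31, 0.53 and 0.40 after heat, a change of -0.24 (SE 0.078, limma adjusted p = 0.02). In both cases the highest heated array lay just below the lowest control, at 0.28 against 0.29 for Ezh2 and 0.53 against 0.54 for Eed. Each call was lost without any 1 of 3 arrays: control replicates 1 and 3 and heated replicate 1 for Ezh2 (adjusted p 0.063 to 0.11), and control replicate 3 and heated replicates 1 and 3 for Eed (adjusted p 0.051 to 0.14). Neither call held with the scanner software's ratio (-0.17 and -0.16, adjusted p = 0.25 and 0.41) or with offset 10 (-0.19 and -0.21, adjusted p = 0.1 and 0.13), and that of Ezh2 was lost with the slide block (-0.24, adjusted p = 0.082). In wildtype cells at 30 min the changes were -0.16 (SE 0.067, limma adjusted p = 0.13) for Ezh2 and -0.02 (SE 0.078, limma adjusted p = 0.93) for Eed.

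At 240 min neither gene passed. Ezh2 changed by 0.04 in wildtype and 0.02 in CHIP null cells (95% interval -0.10 to 0.18 and -0.12 to 0.16), and median centring turned the CHIP null value to -0.34 (adjusted p = 0.029). Eed read 1.06, 1.04 and 1.08 on wildtype controls and 1.38, 1.29 and 1.11 on heated arrays, which did not overlap, a change of 0.20 (SE 0.078, limma adjusted p = 0.058). Without heated replicate 3 that change was 0.27 and passed (adjusted p = 0.025). In CHIP null cells at 240 min Eed changed by 0.11 (SE 0.078, limma adjusted p = 0.26), and the arrays overlapped. By its mean, heated Eed in CHIP null cells was thus above its control at 240 min and below it at 30 min. The difference between times there, 0.35, did not pass (SE 0.110, limma adjusted p = 0.087).

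The accessory subunit Jarid2 could be tested with 1 of its 3 probes (A_52_P370203). In CHIP null cells at 30 min it read -0.90, -0.79 and -0.74 on controls and -0.61, -0.57 and -0.63 after heat, a change of 0.21 (SE 0.072, limma adjusted p = 0.03). None of the 3 heated arrays was well above background for this probe and 2 of the 3 controls were, so the higher value rests on dim signal. The call was lost without control replicate 1 or without any 1 of the heated replicates (adjusted p 0.05 to 0.15), and its sign turned with median centring (-0.01, adjusted p = 0.96) and with the scanner software's ratio (-0.25, adjusted p = 0.37). The remaining Jarid2 changes with heat ran from -0.03 to 0.17 and did not pass. The 2 other Jarid2 probes were above background on 4 and 0 of 24 arrays, and the Ezh1 probe on 0 of 24, so no test was made for them. Ezh1, the relative of Ezh2 found mostly in non-dividing cells, read between -0.27 and 0.07 with no array well above background in Cy5, while its probe was above background in the Cy3 reference on 21 of 24 arrays.

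**Figure D3:**
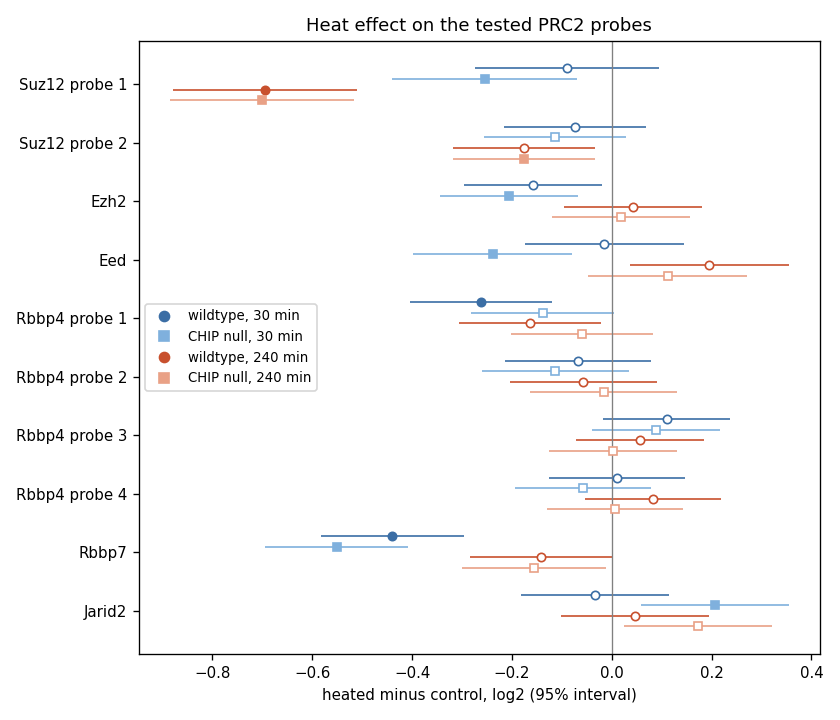
Heated minus control difference in log2 ratio for the 10 tested PRC2 probes (rows) in the 4 heat comparisons, with 95% intervals from the limma fit over 24 arrays. Filled symbols passed at an adjusted p under 0.05, open symbols did not, and probes of a gene are numbered from the brightest. Suz12 probe 1 at 240 min and Rbbp7 at 30 min lie farthest below 0.

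The next question was whether the heat effect depended on CHIP. In limma's test of the difference, none of the 10 PRC2 probes passed at 30 min (1 had an unadjusted p under 0.05, and 0.212% of all probes passed) and none at 240 min (0 had an unadjusted p under 0.05, and 0% of all probes passed). For the brighter Suz12 probe the CHIP null effect minus the wildtype effect was -0.17 at 30 min (95% interval -0.43 to 0.10) and -0.01 at 240 min (-0.27 to 0.26). For Rbbp7 it was -0.11 (-0.31 to 0.09) and -0.01 (-0.22 to 0.19). The probe with an unadjusted p under 0.05 at 30 min was that of Jarid2, at 0.24 (0.03 to 0.45, limma adjusted p = 0.38), on dim signal. Eed was at -0.22 at 30 min (-0.45 to 0.001, limma adjusted p = 0.46). These intervals reach as far as 0.45 from 0 on the log2 scale, so equal effects in both genotypes were not shown.

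CHIP null cells were then compared with wildtype cells at the same treatment and time. These comparisons use the same arrays as the heat comparisons. Among controls at 30 min 3 PRC2 probes were higher in CHIP null cells and none lower, where 29.3% of all probes passed, 13.7% as higher and 15.6% as lower, and where groups stood apart for 20.7% as higher and 20.4% as lower. The brightest Rbbp4 probe was higher by 0.27 (SE 0.070, limma adjusted p = 0.0029), with 0.89, 0.76 and 0.69 in wildtype and 1.10, 1.04 and 1.02 in CHIP null cells. Its 3 other probes were at 0.11, 0.01 and 0.12 and did not pass (adjusted p = 0.29, 0.95 and 0.18). Ezh2 was higher by 0.25 (SE 0.067, limma adjusted p = 0.0046), with 0.19, 0.32 and 0.12 in wildtype and 0.55, 0.29 and 0.54 in CHIP null cells, which overlapped. Eed was higher by 0.22 (SE 0.078, limma adjusted p = 0.03), with 0.56, 0.39 and 0.34 against 0.64, 0.54 and 0.78, which also overlapped. Suz12 was higher by 0.21 without overlap and did not pass (SE 0.090, limma adjusted p = 0.082), while the scanner software's ratio gave 0.49 and passed (adjusted p = 0.015).

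No slide held both genotypes at the same treatment and time, so the genotypes are joined only through other groups on shared slides. With the slide as a block in the fit, Rbbp4, Ezh2 and Eed were higher by 0.30, 0.26 and 0.33 and none passed (adjusted p = 0.17, 0.22 and 0.14). The scanner software's ratio ended these calls too (0.16, 0.28 and 0.25, adjusted p = 0.16, 0.058 and 0.19). The Eed call was also lost without wildtype control replicate 2 or 3 or CHIP null control replicate 1 or 3 (adjusted p 0.058 to 0.19).

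Among heated cells at 30 min 2 probes were higher in CHIP null cells and none lower, where 22.9% of all probes passed, 12.3% as higher and 10.6% as lower, and where groups stood apart for 18.9% as higher and 16.1% as lower. The brightest Rbbp4 probe was higher by 0.40 (SE 0.070, limma adjusted p = 5.9e-05), at 0.87, 0.87 and 1.01 against 0.51, 0.45 and 0.60. The 3 other Rbbp4 probes were at 0.06, -0.01 and 0.05 and did not pass (adjusted p 0.62 to 0.91), and median centring ended the call of the brightest (0.38, adjusted p = 0.15) and of Ezh2 (0.13, adjusted p = 0.65). Ezh2 was higher by 0.20 (SE 0.067, limma adjusted p = 0.026), at 0.22, 0.28 and 0.27 against 0.14, 0.03 and -0.01. For the brightest Rbbp4 probe and for Ezh2 the groups stood apart. With the slide block the values were 0.28 and 0.08 (adjusted p = 0.19 and 0.76), and the Ezh2 call was lost without replicate 2 or 3 of either heated group (adjusted p 0.07 to 0.11).

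At 240 min the brightest Rbbp4 probe lay the other way. Among controls it read 0.97, 1.03 and 0.996 in wildtype and 0.83, 0.49 and 0.75 in CHIP null cells, lower by 0.31 in CHIP null (change -0.31, SE 0.070, limma adjusted p = 0.0027). This was 1 probe of 10, where 10.6% of all probes passed, 6.45% as lower and 4.14% as higher, and where groups stood apart for 16.5% as lower and 12.8% as higher. The slide block gave -0.29 (adjusted p = 0.31), median centring -0.23 (adjusted p = 0.57) and the scanner software's ratio -0.26 (adjusted p = 0.071). The 3 other Rbbp4 probes ranged from -0.13 to 0.12 and did not pass. Among heated cells none of the 10 passed in limma (2 had an unadjusted p under 0.05, and 10.1% of all probes passed, 3.78% as higher and 6.3% as lower). Eed, at -0.23, and Rbbp4, at -0.20, came nearest (limma adjusted p = 0.061 and 0.059). Of these, Eed passed without wildtype heated replicate 3 (-0.30, adjusted p = 0.021).

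The genotype difference of Rbbp4 changed with the time label in both treatments. The difference at 240 min minus that at 30 min, a comparison added after the values had been seen, was -0.58 among controls (SE 0.098, limma adjusted p = 7.5e-05) and -0.60 among heated cells (SE 0.098, limma adjusted p = 4.9e-05). Ezh2 gave -0.33 among controls (SE 0.095, limma adjusted p = 0.018) and -0.30 among heated cells (SE 0.095, limma adjusted p = 0.03), and Eed gave -0.37 among controls (SE 0.110, limma adjusted p = 0.022). Over all probes 14.5% and 13.9% passed in these tests. None of the 5 passed with the slide block (adjusted p 0.074 to 0.86). The Ezh2 and Eed differences were also lost without single arrays. The other Rbbp4 probes that were tested did not pass here.

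**Figure D4:**
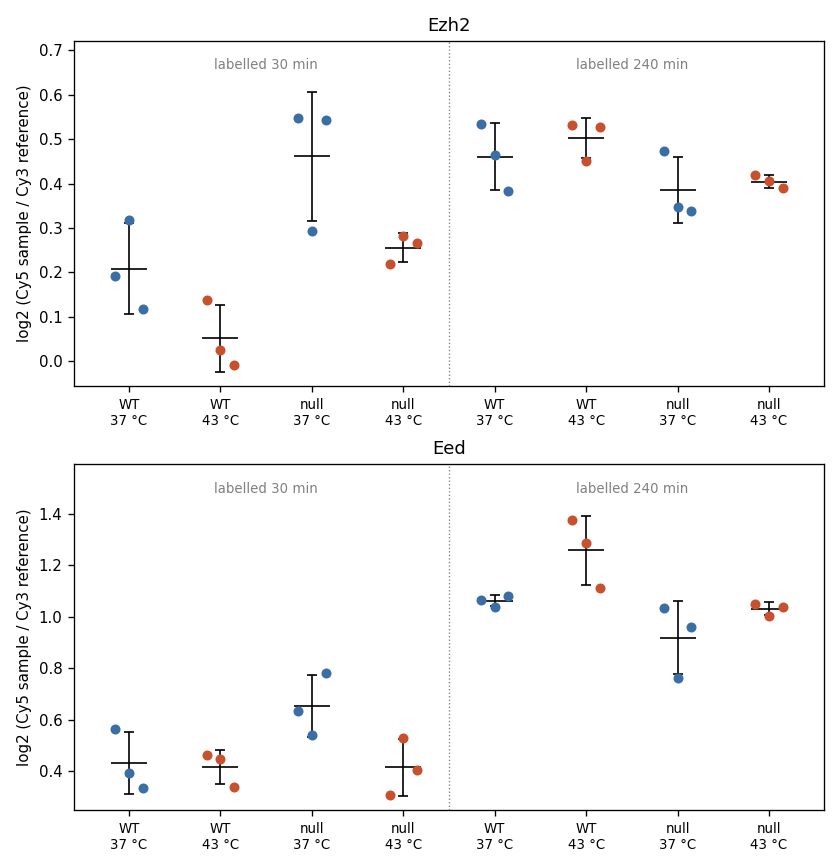
Log2 ratio to the common reference on each of 24 arrays for Ezh2 (top) and Eed (bottom). Blue points are 37 °C controls, red points are cells heated at 43 °C, and bars are the mean with 1 SD (n = 3). Eed lies lower at 30 min than at 240 min in each matching pair of groups by its mean, and Ezh2 is lowest in heated wildtype cells at 30 min.

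Levels at 37 °C also differed between the time labels, which compare separate sets of slides. In wildtype controls 7 PRC2 probes were higher at 240 min and 1 lower, where 61% of all probes passed, 30.3% as higher and 30.7% as lower. In CHIP null controls 4 were higher and 2 lower, where 47.4% passed, 21.9% as higher and 25.5% as lower. Eed was higher by 0.63 in wildtype (SE 0.078, limma adjusted p = 6.1e-08) and 0.27 in CHIP null controls (SE 0.078, limma adjusted p = 0.0062). Suz12 was higher by 0.51 (SE 0.090, limma adjusted p = 1.9e-05) and 0.29 (SE 0.090, limma adjusted p = 0.0088). Jarid2 was lower by 0.39 and 0.33 (changes -0.39 and -0.33, limma adjusted p = 3e-05 and 0.00043), with -0.04 and 0.17 by the scanner software's ratio (adjusted p = 0.89 and 0.6). Rbbp4 was higher by 0.22 in wildtype but lower in CHIP null controls (-0.37, limma adjusted p = 8.7e-05) on its brightest probe, while probe A_52_P382731 was higher there (0.18, limma adjusted p = 0.018). With the scanner software's ratio none of the CHIP null calls held (Eed 0.18, Suz12 0.32 and Rbbp4 -0.20, adjusted p = 0.4, 0.13 and 0.096), and with offset 10 the Eed call was lost as well (0.14, adjusted p = 0.29). Rbbp7 did not pass in either genotype in this fit, and with the scanner software's ratio it was higher by 0.22 in wildtype controls (adjusted p = 0.021).

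The genotype differences of Ezh2 and Rbbp4 at 30 min stood beside a much broader one in proliferation genes. Of 24 such genes tested, 23 were higher in CHIP null controls and none lower, with a median difference of 0.51 (0.00 over all probes), and 22 of 24 were higher in heated CHIP null cells, with a median of 0.53. The mitotic cyclin gene Ccnb1 was higher by 0.84 and the mitotic kinase gene Plk1 by 0.76 among controls (limma adjusted p = 4e-12 and 2e-11). The mean of the 24 genes per array was 0.43 to 0.50 in wildtype controls and 0.30 to 0.31 in heated wildtype cells at 30 min. It was 0.92 to 0.99 and 0.79 to 0.85 in CHIP null cells at 30 min, and 0.88 to 0.97 over all groups at 240 min, where no proliferation gene differed among controls. In wildtype 30 min controls the mean of the 10 macrophage markers was also the highest of any group, and all 10 were lower in CHIP null controls, where 7 of 12 fibroblast markers were higher and 1 lower. Their part in the Ezh2, Eed and Rbbp4 differences was not tested.

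The INK4 genes, textbook targets of PRC2 repression, were lower in CHIP null cells at 30 min. Cdkn2b was lower by 0.50 (change -0.50) and Cdkn2a by 0.24 (change -0.24) among controls (limma adjusted p = 2.6e-05 and 0.0012), and by 0.44 (change -0.44) and 0.32 (change -0.32) among heated cells (limma adjusted p = 0.00018 and 3.7e-05). With the slide block Cdkn2b kept its call in both treatments (-0.86 and -0.81, adjusted p = 3.8e-05 and 9.2e-05), and Cdkn2a only among heated cells (-0.37, adjusted p = 0.027). At 240 min neither gene passed in either genotype comparison. With heat, Cdkn2b was lower at 30 min in wildtype (-0.28) and CHIP null cells (-0.22, limma adjusted p = 0.028 and 0.044), without a call under the slide block (adjusted p = 0.69 and 0.82), and neither INK4 gene passed at 240 min.

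Among the PRC2 accessory subunits, 7 of 8 had a tested probe. With heat none passed in wildtype at 30 min (limma), 2 were lower in wildtype at 240 min, 2 lower and 1 higher in CHIP null at 30 min, and 1 lower and 1 higher in CHIP null at 240 min. Mtf2, a Polycomb-like protein that binds H3K36 methylation and DNA, fell on its brightest probe in 3 of the 4 comparisons, by 0.32 in wildtype at 240 min (-0.32, limma adjusted p = 0.0022), by 0.24 in CHIP null at 30 min (-0.24, limma adjusted p = 0.013) and by 0.28 in CHIP null at 240 min (-0.28, limma adjusted p = 0.005). Its 4 probes were all below 0 in those 3 comparisons, from -0.40 to -0.08. In wildtype cells at 30 min they ranged from -0.36 to 0.05, and A_51_P261001 passed (-0.36, limma adjusted p = 0.0021). Aebp2, which forms a PRC2 variant with JARID2, fell in CHIP null cells at 30 min (-0.42, limma adjusted p = 0.00044), where its second probe read -0.03. Lcorl fell in wildtype at 240 min (-0.26, limma adjusted p = 0.012). Phf1 was higher in CHIP null at 240 min (0.18, limma adjusted p = 0.039) but lay at -0.09 with median centring. In CHIP null against wildtype controls at 30 min the accessory genes Phf19 and Epop were higher by 0.30 and 0.29 (limma adjusted p = 0.0019 and 0.017), 2 of 7, and with the slide block Epop was at -0.13.

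The sister complex PRC1, which places ubiquitin on histone H2A, had 22 of 26 genes tested. With heat 0 rose and 3 fell in wildtype at 30 min, 3 rose and 5 fell at 240 min, 1 rose and 3 fell in CHIP null at 30 min, and 4 rose and 8 fell at 240 min. The list medians were -0.01, -0.04, -0.05 and -0.09, against 0.01, 0.05, 0.02 and 0.06 over all probes. E2f6, the DNA-binding subunit of a PRC1 variant, fell in all 4 comparisons, by 0.54 and 0.63 in wildtype (-0.54 at 30 min, -0.63 at 240 min) and by 0.63 and 0.73 in CHIP null cells (-0.63 and -0.73, limma adjusted p 0.00059 or less). Its second probe ranged from -0.31 to 0.03, and with the slide block the wildtype fall at 240 min was -0.44 and did not pass (adjusted p = 0.059). Rybp, a partner of the catalytic RING subunits, fell by 0.33 and 0.58 in wildtype (-0.33 and -0.58) and by 0.32 and 0.59 in CHIP null cells (-0.32 and -0.59, limma adjusted p 0.0056 or less), while its other probe lay between -0.15 and 0.00. Rnf2, a catalytic subunit named here after its values were seen, fell by 0.27, 0.43, 0.30 and 0.51 in wildtype at 30 and 240 min and CHIP null at 30 and 240 min (-0.27, -0.43, -0.30 and -0.51, limma adjusted p 0.044 or less).

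Of 6 tested genes of the Polycomb deubiquitinase and the H3K27 demethylases, Foxk2, a forkhead factor of the deubiquitinase complex, fell in all 4 heat comparisons (-0.29, -0.26, -0.38 and -0.25, limma adjusted p 0.0069 or less). With the slide block it kept its call only in CHIP null cells at 30 min (-0.45, adjusted p = 0.0019). These values are from its brightest probe: A_52_P407889 passed in the same direction in all but wildtype at 30 min (-0.20 to -0.09 over the 4), and A_52_P630473 passed in none (-0.11 to 0.03). Asxl1 fell in CHIP null cells at 30 min (-0.29, limma adjusted p = 0.0068), where its second probe also passed (-0.20, adjusted p = 0.033). That second probe passed at 240 min as well, in wildtype (-0.31) and CHIP null cells (-0.30, adjusted p = 0.0024 in each), where the brightest did not. In 30 min controls Foxk2 was higher in CHIP null cells by 0.41 (limma adjusted p = 2.2e-05) and Asxl1 by 0.26 (limma adjusted p = 0.014), the latter at 0.06 with the slide block. Their other probes were at 0.11 and 0.18 for Foxk2 (adjusted p = 0.17 and 0.025) and at 0.10 for Asxl1 (adjusted p = 0.33).

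The list for other complexes that hold RBBP4 or RBBP7 (NuRD, SIN3, CAF-1 and NURF) had all 25 genes tested. It also held Asf1a, Asf1b and Hat1, which are not subunits of those complexes. With heat 0 rose and 1 fell in wildtype at 30 min, 4 rose and 3 fell at 240 min, 2 rose and 3 fell in CHIP null at 30 min, and 5 rose and 2 fell at 240 min. Bptf, the large subunit of the NURF remodeller, fell in all 4 (-0.56, -0.68, -0.49 and -0.86 in wildtype at 30 and 240 min and CHIP null at 30 and 240 min, limma adjusted p 7.5e-05 or less), with a second probe from -0.37 to -0.12. Its partner ATPase Smarca5 fell at 240 min in wildtype (-0.39) and CHIP null cells (-0.43), on all 4 of its probes (-0.48 to -0.30). In 30 min controls 7 of the 25 genes were higher and 2 lower in CHIP null cells, led by the histone chaperone genes Asf1b (0.71, limma adjusted p = 1.5e-09) and Chaf1b (0.67, limma adjusted p = 2.9e-10). Both kept their calls with the slide block (adjusted p = 0.0085 and 0.0011).

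**Figure D5:**
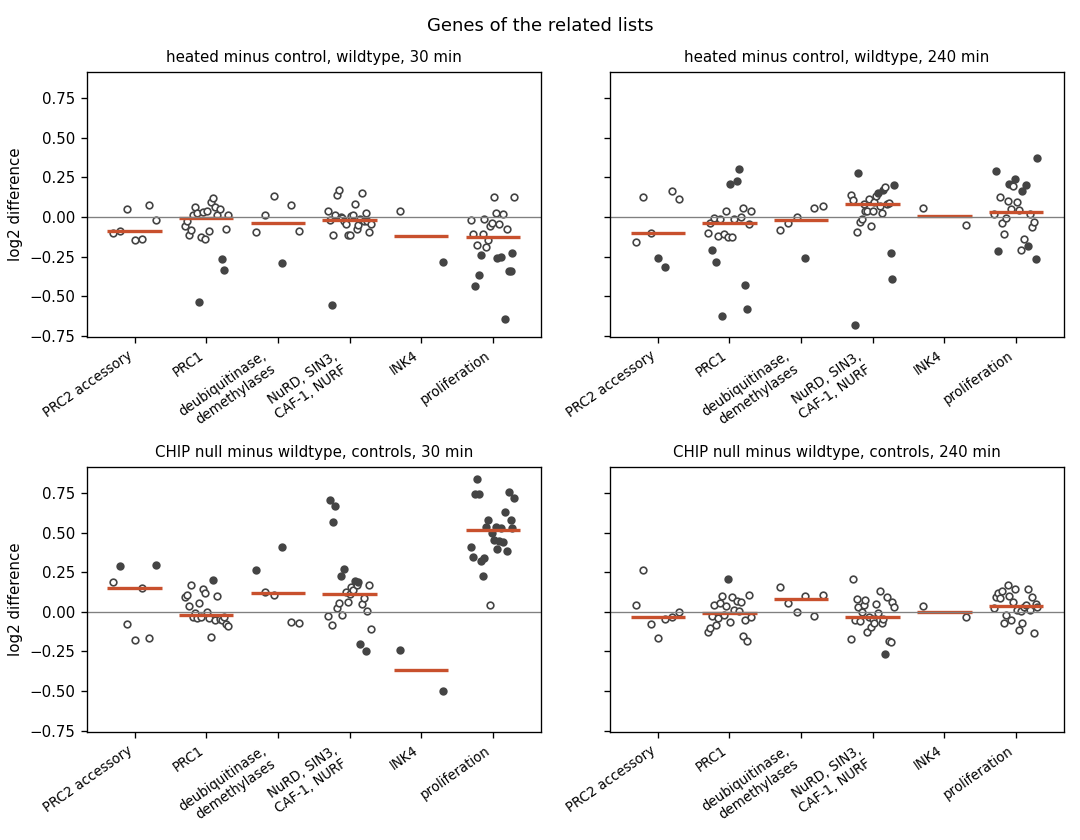
Log2 differences of the genes of 6 related lists in heated against control wildtype cells (top) and in CHIP null against wildtype controls (bottom), at 30 min (left) and 240 min (right). Each point is the brightest tested probe of a gene, filled where the adjusted p was under 0.05, and red lines are list medians. At 30 min 23 of 24 proliferation genes were higher in CHIP null controls, and at 240 min none was.

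The genes most like each member over the 24 arrays were found after each time label was centred on its own mean. Suz12 was closest to Creb1 (r = 0.966), Zzz3 (0.963) and C130006E23 (0.959), and Rbbp7 to Mphosph6 (0.941), LOC667836 (0.922) and Cav1 (0.92). Ezh2 was closest to Pole3 (0.855) and Pola1 (0.852), DNA polymerase subunit genes, and Timm8a1 (0.848). Eed was closest to Gtf3c6 (0.848), Tardbp (0.842) and Cibar1 (0.821), Rbbp4 to Cpsf7 (0.911), Sumo2 (0.91) and Lmo7 (0.879), and Jarid2 to Gng3 (0.779), Tub (0.779) and C1s1 (0.776). Among the members themselves, Ezh2 correlated at 0.73 with the brightest Rbbp4 probe and 0.637 with Eed, the 2 Suz12 probes at 0.688, and Suz12 with Ezh2 at only 0.163. These arrays share groups, slides and the reference, so the correlations are descriptions.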

How the data were processed

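RNA of 24 fibroblast cultures was measured on 2-colour Agilent arrays (Cy5 sample, Cy3 Universal Mouse Reference RNA, 500 ng of total RNA per the labels, no dye swap). Scanner output was quantified with Agilent Feature Extraction 9.1.3.1, per the file headers. Each deposited spot intensity is the mean of its pixels, given with the median of the local background, and the files also hold a deposited log10 ratio and flags for background, saturation and outliers. No PRC2 probe was saturated.

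Intensity values were corrected with normexp (offset 50) and normalized by loess within each array, with control spots at weight 0, in limma 3.58.1 under R 4.3.3. Control spots and 333 outlier spots were left out, and spots of a probe were averaged. A group-means model over 24 arrays gave differences, standard errors and Benjamini-Hochberg adjusted p-values over 19358 probes. The fit was tested on simulated data. Of 41174 probes, 22951 were named by accession, 6659 by symbol and 3109 by an older symbol through the RefSeq table of GRCm38.p6, and 8455 kept the files' name. Labels call the 3 arrays of a group biological replicates, and p-values measure the spread between them.

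The authors' deposited value table, used here as a score of 28139 probes, has no stated scale. Times the natural log of 10, with the control mean added back to heated columns, it followed the scanner files' log2 ratio of the other time label with slopes of 0.999 to 1 and r of at least 0.9996, against at most 0.9004 for the same label. This settled scale, centring and direction. Its column medians were -0.05 to 0.01 for controls and -0.01 to 0.02 for heated samples.

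The members and the gene lists were chosen with earlier results of these data known. Every PRC2 probe is accounted for. From each list, at most the 2 genes with the largest change among those that passed are named per comparison, by the brightest probe, and the 3 genes most like each member. Rnf2 was named beyond this rule, after its values were seen. Comparisons of genotype differences between times were added after the values were seen. Promoter sequences are from RefSeq, and 7 of 7 members matched. Alternatives were another offset, median centring, the scanner software's ratio, no filter, slide and replicate blocks, single arrays left out and the value table.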

Additional observations from a re-analysis of the deposited data

Results flagged for a closer look

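The heat effect on the brighter Suz12 probe differed between the time labels in wildtype cells, at -0.60 for 240 min minus 30 min (SE 0.128, limma adjusted p = 0.015). For Rbbp7 in CHIP null cells the same difference was 0.40 (SE 0.099, limma adjusted p = 0.036). Both calls were lost with the slide block, offset 10, median centring and the scanner software's ratio, that of Suz12 also without 1 of 12 arrays (wildtype heated replicate 3 at 240 min), and that of Rbbp7 without any 1 of 6 of 12 arrays (CHIP null control replicates 1 and 3 and heated replicate 1 at 30 min, control replicates 2 and 3 and heated replicate 2 at 240 min). The CHIP null minus wildtype difference at 240 min minus that at 30 min was -0.33 for Ezh2, -0.37 for Eed and -0.58 for the brightest Rbbp4 probe among controls. Among heated cells it was -0.30 for Ezh2 and -0.60 for Rbbp4. Ezh2 lost its call among controls without wildtype control replicate 3, CHIP null control replicate 1 or 3 at 30 min, or wildtype control replicate 1 at 240 min (adjusted p 0.06 to 0.062). Among heated cells it lost it without replicate 2 or 3 of either group at 30 min, without wildtype replicate 1 or 3 or without CHIP null replicate 2 or 3 at 240 min (adjusted p 0.054 to 0.079). Eed lost it without wildtype control replicate 2 or 3 or CHIP null control replicate 3 at 30 min, or CHIP null control replicate 2 at 240 min (adjusted p 0.054 to 0.09). Each was called by the test of the difference itself, and each compares 2 separate sets of slides as well as 2 time labels, which cannot be told apart. No value of a group of 3 arrays was tested for outliers.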

How the results depend on the processing

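The falls of the brighter Suz12 probe at 240 min and the Rbbp7 falls at 30 min, in both genotypes, kept their direction and their call with offset 10, median centring, the scanner software's ratio, no filter, the slide block, the replicate block and each single array left out. This did not hold for the dimmer Suz12 probe. Counts of PRC2 probes called moved as follows, with small changes of a count left out, and the cause was not tested. With offset 10 the heat counts in CHIP null cells were 2 in place of 5 at 30 min and 1 in place of 2 at 240 min, both differences between heat effects at the times went from 1 to 0, and CHIP null controls between times from 6 to 2. Median centring gave 1, 2 and 5 for heat in wildtype at 30 and 240 min and CHIP null at 240 min, 0 for the genotypes in 240 min controls, 0 in 30 min heated cells, 0 for both differences between times, 3 for CHIP null controls between times, and 1 and 0 for the added comparisons among controls and heated cells. It moved the median of all probes to -0.15 and -0.17 in the CHIP null heat comparisons at 30 and 240 min. The scanner software's ratio gave 1 for heat in CHIP null at 240 min, 0 for 240 min controls between genotypes, 0 for both differences between times, 4 and 0 for wildtype and CHIP null controls between times, and 1 and 1 for the added comparisons. It also changed which probes passed. For heat in CHIP null at 30 min these were both Suz12 probes, Rbbp4 probe A_52_P424767 and Rbbp7, and not Eed, Ezh2 or Jarid2. Between genotypes in 30 min controls the Rbbp4, Ezh2 and Eed calls ended and the brighter Suz12 probe passed. Without the filter, heat in CHIP null at 240 min gave 1. The slide block gave 1, 2 and 1 for heat in wildtype at 30 min and CHIP null at 30 and 240 min, and 0 for the genotypes at 30 min in controls and in heated cells, for both differences between times and for both added comparisons. The comparisons of controls between times have no value with that block, since no slide holds both. The value table with its own time labels gave 1, 2, 1 and 4 for heat in wildtype at 30 and 240 min and CHIP null at 30 and 240 min.

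Signs turned for Rbbp4 probe A_52_P424767 with heat in wildtype at 30 min (-0.66 with the scanner software's ratio, adjusted p = 0.036), for Ezh2 with heat in CHIP null at 240 min (-0.34 with median centring), and for Jarid2 with heat in CHIP null at 30 min (-0.0066 with median centring, -0.25 with the software's ratio), between genotypes in heated cells at 30 min (-0.60) and in CHIP null controls between times (0.17), the last 2 with the software's ratio.

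Same-numbered samples did not deviate together in most cases (correlations -0.23 to 0.55, over 0.1 in 9 of 24 pairs), so the numbers were not used to pair samples. The highest values, 0.55 and 0.418, were those of replicates 1 and 3 in heated cells between genotypes at 240 min. A tie between those samples was not tested. With the replicate block the counts rose to 2 for heat in wildtype at 240 min, to 1 for heated cells between genotypes at 240 min and to 2 for the difference between times in CHIP null cells.

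Leaving out 1 array gave counts of 1 to 2, 1 to 2, 1 to 4 and 1 to 4 for heat in wildtype at 30 and 240 min and CHIP null at 30 and 240 min. Between genotypes they were 2 to 3 and 1 to 1 in controls and 1 to 2 and 0 to 1 in heated cells at 30 and 240 min, and 0 to 0 for both differences of heat effects between genotypes. Between times they were 0 to 1 and 0 to 2 for wildtype and CHIP null heat effects, 6 to 8 and 4 to 7 for wildtype and CHIP null controls, and 1 to 4 and 1 to 2 for the added comparisons among controls and heated cells. Signal over background limits the dimmer Suz12 probe, Jarid2 and 1 Rbbp4 probe, above background on 17 to 19 of 24 arrays.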

Other observations

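Some members of the proliferation list moved with heat. At 30 min 9 of 24 fell in wildtype and 8 fell and 1 rose in CHIP null cells, led by Mki67 in wildtype (-0.64, limma adjusted p = 4e-07) and by Ccna2 in CHIP null cells (-0.59, limma adjusted p = 1.2e-05). At 240 min 6 rose and 3 fell in wildtype and 4 rose and 5 fell in CHIP null cells, where the thymidylate synthase gene Tyms rose in both (0.37 and 0.35, limma adjusted p = 2.1e-05 and 2.9e-05), though in CHIP null cells it was at 0.07 with median centring. Their medians with heat were -0.13, 0.03, -0.11 and 0.03 in wildtype at 30 and 240 min and CHIP null at 30 and 240 min, against 0.01, 0.05, 0.02 and 0.06 over all probes.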
